A study of Mus musculus with 2 samples.

Results

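The 10 genes described here encode secreted angiogenic growth factors, proteins that act on endothelial cells and on the cells around them while vessels form and mature. They are Vegfa, Vegfb, Vegfc and Pgf of the vascular endothelial growth factor (VEGF) family, the angiopoietins Angpt1 and Angpt2, the angiopoietin-like Angptl4, and Fgf2, Hgf and Pdgfb. They were chosen by gene symbol for this function, with earlier results of these data known. All 10 were found among the 24091 genes measured.

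RNA was sequenced from 2 libraries labelled as primary adipocytes from the gonadal fat of C57BL/6 mice, and each condition had 1 library. The no radiation library came from sham-irradiated mice, and the radiation library came from mice irradiated on the pelvis with 7.5 Gy for 5 days. Gonadal fat was dissociated with collagenase 2 months later, and the floating cells spent 3 days in culture before their polyA RNA was made into stranded libraries. The sources used here do not state whether the dose is per day or in total, what the PBS in both sample titles was for, or the age, sex and number of the mice.

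Adipose tissue grows and shrinks with its capillaries, and its adipocytes, stromal cells and macrophages all release angiogenic factors. Ligands of the VEGF family act through the receptors Flt1, Kdr and Flt4, the angiopoietins through Tek, and Fgf2, Hgf and Pdgfb through receptors found on endothelial, mesenchymal and epithelial cells. Angptl4 is made in quantity by adipocytes, where it inhibits lipoprotein lipase, and it is also studied as a regulator of vessel permeability.

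The label of primary adipocytes was checked against 12 markers of mature adipocytes. Of these, 9 were under 1 FPKM (fragments per kilobase of gene, scaled to the size of the library) in both libraries. Adipoq, which encodes the hormone adiponectin, was at 0.133 FPKM without radiation and 0.232 FPKM with radiation. Lep, which encodes leptin, was at 0 without radiation and had 2 fragments with radiation. The other 3 markers were Fabp4, at 96.9 FPKM in both libraries, Pnpla2 and Pparg. The 9 low markers thus went against the label. The 12 fibroblast and progenitor markers summed to 4487 FPKM without radiation and 3602 FPKM with radiation, and Col1a1, a fibrillar collagen, was the most abundant of them at 1937 and 1428 FPKM. Each value is that of all cells in a library, and a smaller number of cells of a type cannot be told apart from less RNA per cell. Differences between the conditions have no replicate check.

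All 10 growth factor genes reached 1 FPKM in at least 1 library, and their levels spanned 1.83 to 50.1 FPKM without radiation. Differences are given as radiation minus no radiation on the deposited scale, log2 of FPKM plus 0.1. Each is followed by the 95% interval of the log2 ratio that counting error in the fragments alone allows. That ratio holds no pseudocount, so for genes of low level the difference can lie away from the middle of the interval. Pgf was the only member at or past a difference of 1, and it was higher with radiation. That is 1 of 10 members, while 0.791% of the 11253 genes that reached 1 FPKM in either library were higher by that much. None of the 10 was lower by at least 1, against 0.373% of those genes. Of the 10 members, 6 were higher and 4 were lower with radiation, beside 6020 higher and 4947 lower among the 11253 genes. Their median difference was 0.05, beside 0.02 over those genes. The counting interval lay above 0 for 5 members, Vegfa, Pgf, Angpt2, Fgf2 and Pdgfb, against 23.8% of the 11253 genes. It lay below 0 for 2 members, Angpt1 and Angptl4, against 17.4%. The FPKM of the 10 members summed to 177 without radiation and 188 with radiation. Since the members were chosen with earlier results of these data known, the shares set beside them are a description only.

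**Figure D1:**
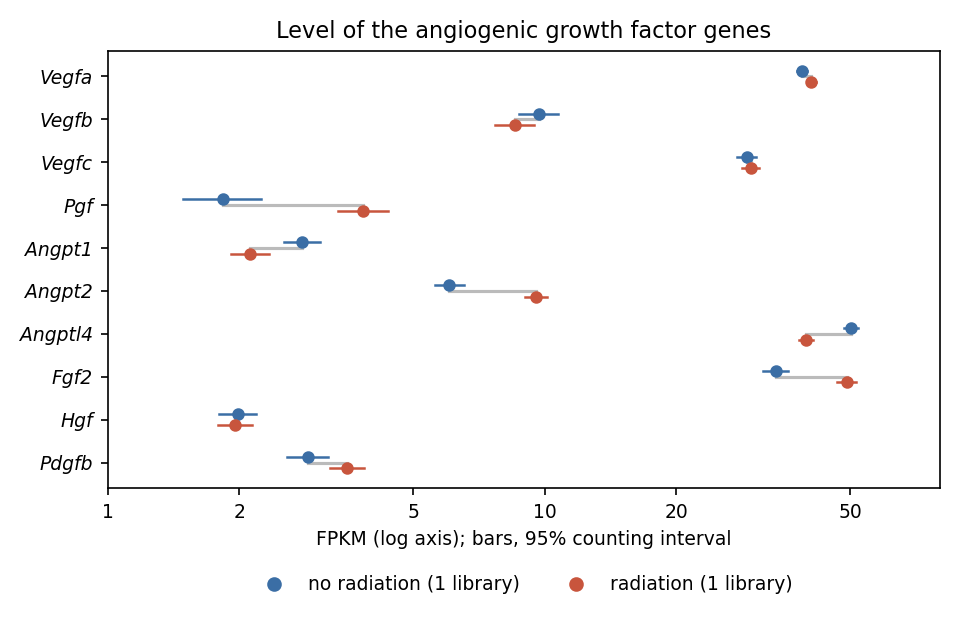
FPKM (log axis) of the 10 growth factor genes in the no radiation library (blue) and the radiation library (red), with bars for the 95% counting interval of each value. Pgf was at 1.83 and 3.84 FPKM, and Hgf was at 1.98 and 1.96 FPKM.

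Vegfa, the principal ligand that drives endothelial division and permeability (chr17:46016993-46032377, build mm10 throughout), was at 38.8 FPKM without radiation and 40.7 FPKM with radiation, from 5168 and 6208 fragments. The difference was 0.07 (0.02 to 0.12). The level was thus nearly the same in both libraries, and after each difference was centred on 0.02, the median of the 10907 genes at or above 1 FPKM in both libraries, the interval became -0.0032 to 0.10, which holds 0. Rounding of the deposited values to 2 decimals can also move a difference by up to 0.01. Vegfc, the main ligand of lymphatic vessel growth through Flt4 (chr8:54077532-54186454), was at 28.9 and 29.6 FPKM, a difference of 0.03 (-0.07 to 0.13). Vegfb, a ligand of Flt1 studied for its part in endothelial fatty acid uptake (chr19:6982472-6987651), was at 9.68 and 8.53 FPKM, a difference of -0.18 (-0.39 to 0.03). For Vegfb and Vegfc no difference was detectable at this depth.

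Pgf encodes placental growth factor, which binds Flt1 and not Kdr, and lies at chr12:85166639-85177313. It was at 1.83 FPKM without radiation and 3.84 FPKM with radiation, from 94 and 225 fragments. It was the least abundant of the 10 members without radiation and the seventh of them with radiation. The difference was 1.03 (0.71 to 1.43), and 78 of the 11253 genes had a difference as large or larger. Among genes whose higher FPKM was between 1 and 5, as for Pgf, 1.78% were higher by at least 1. With a pseudocount of 1 the difference of Pgf was 0.77, below the threshold. The ratio of Pgf to Vegfa in FPKM was 0.0473 without radiation and 0.0945 with radiation, a 2.00-fold difference (1.55 to 2.57 by counting error).

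Together with Vegfd, another ligand of Flt4, the VEGF family summed to 116 FPKM without radiation and 113 FPKM with radiation. Vegfa held 33.5% and 36.1% of that sum, and Vegfc held 25.0% and 26.2%. Vegfd held 31.5% and 26.8%, Vegfb held 8.37% and 7.57%, and Pgf held 1.58% and 3.41%. The family sum was therefore close in the libraries, and Pgf had a small share of it in both.

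Angpt1 and Angpt2 bind the same receptor, Tek. Angpt1 activates it and stabilises vessels, while Angpt2 often opposes it and accompanies vessel remodelling. Angpt1 (chr15:42424667-42676977) was at 2.79 FPKM without radiation and 2.12 FPKM with radiation, a difference of -0.38 (-0.59 to -0.20). Angpt2 (chr8:18690263-18741562) was at 6.05 and 9.55 FPKM, from 657 and 1186 fragments, a difference of 0.65 (0.52 to 0.80). The angiopoietins thus differed in opposite directions, with Angpt2 the more abundant in both libraries. The ratio of Angpt2 to Angpt1 in FPKM was 2.17 without radiation and 4.50 with radiation, a 2.08-fold difference (1.75 to 2.46 by counting error). Of the 11253 genes, 282 had a difference at least as high as that of Angpt2. Angpt2 lies within the span of Mcph1, a gene on the opposite strand, which was at 4.07 and 3.74 FPKM. The strand setting used in counting is not stated. The ratio of Angpt2 to Angpt1 and that of Pgf to Vegfa were chosen after the values were seen, and both are free of the scaling of the libraries.

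Angptl4 (chr17:33774900-33781575) was the most abundant member without radiation, at 50.1 FPKM, and was at 39.6 FPKM with radiation, from 2905 and 2625 fragments. The difference was -0.34 (-0.42 to -0.26). With radiation its level overlapped that of Vegfa, with counting intervals of 38.1 to 41.1 FPKM for Angptl4 and 39.7 to 41.7 FPKM for Vegfa.

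Fgf2, a heparin-binding mitogen of endothelial and mesenchymal cells (chr3:37348653-37404830), was at 33.7 FPKM without radiation and 49.1 FPKM with radiation, from 914 and 1521 fragments. The difference was 0.54 (0.42 to 0.66), and 418 of the 11253 genes had one as high or higher. With radiation Fgf2 had the highest level of the 10 members. Its place in that order rests on a gene length of 0.886 kb in the deposited table, where the longest annotated transcript is 5.97 kb. The length is the same for both libraries and enters the difference only through the pseudocount, without which the difference was also 0.54. Hgf, a ligand of Met that moves endothelial and epithelial cells (chr5:16553495-16619439), was at 1.98 and 1.96 FPKM, a difference of -0.02 (-0.21 to 0.17) that was not detectable at this depth. Pdgfb, which recruits pericytes to new vessels through Pdgfrb (chr15:79995876-80014808), was at 2.87 and 3.53 FPKM, a difference of 0.29 (0.10 to 0.51).

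By level, the order without radiation was Angptl4, Vegfa, Fgf2, Vegfc, Vegfb, Angpt2, Pdgfb, Angpt1, Hgf and Pgf. In that order the neighbours whose counting intervals overlapped were Pdgfb with Angpt1 and Hgf with Pgf. With radiation it was Fgf2, Vegfa, Angptl4, Vegfc, Angpt2, Vegfb, Pgf, Pdgfb, Angpt1 and Hgf. There the overlapping neighbours were Vegfa with Angptl4, Angpt2 with Vegfb, Pgf with Pdgfb, and Angpt1 with Hgf. These orders depend on the gene lengths in the deposited table. Those lengths came close to the longest annotated transcript for Vegfb and Angpt2 and differed from it for the other members, as for Angptl4 (1.90 and 3.31 kb) and Hgf (6.96 and 3.47 kb).

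**Figure D2:**
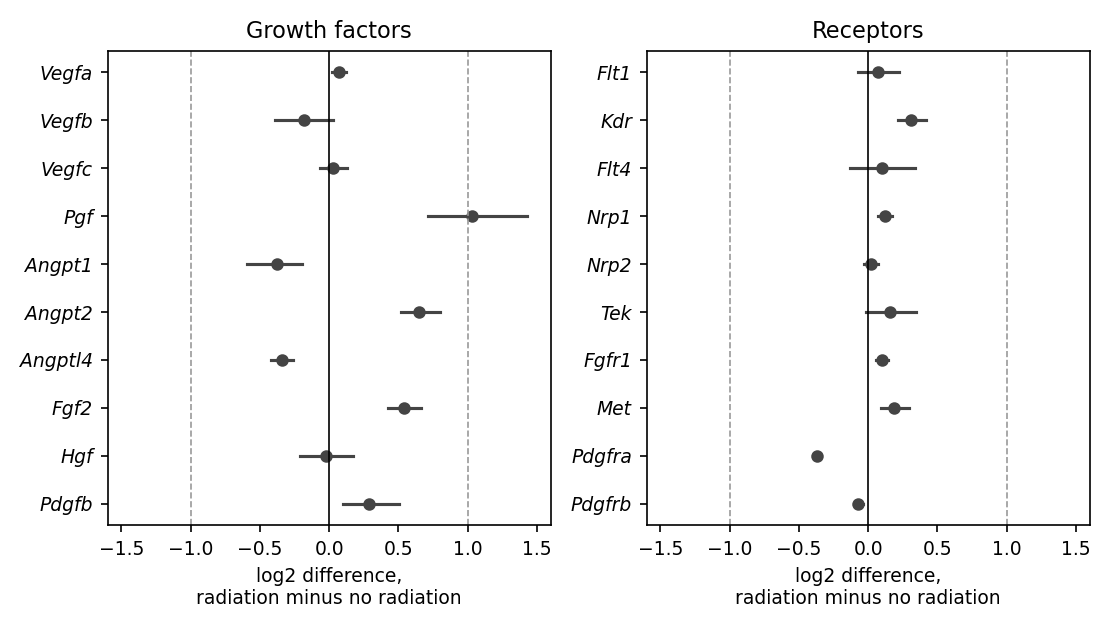
Log2 difference, radiation minus no radiation, of the growth factor genes and of their receptors, with bars for the 95% counting interval and dashed lines at -1 and 1. Pgf was at 1.03 and Angpt1 at -0.38, and the 10 receptors were between -0.37 (Pdgfra) and 0.31 (Kdr).

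Among 18 receptors and co-receptors, 16 reached 1 FPKM, of which 13 were higher, 2 lower and 1 equal with radiation. None was at or past a difference of 1, and the median difference was 0.11. Over the 11253 genes, the reference for this list and those below, 6020 were higher and 4947 lower, with a median difference of 0.02. The counting interval lay above 0 for 9 of the 16 and below 0 for 2, against 23.8% and 17.4% of the 11253 genes. Kdr, the main signalling receptor for Vegfa, was at 5.03 FPKM without radiation and 6.26 FPKM with radiation, a difference of 0.31 (0.21 to 0.42). Flt1, the receptor that Pgf binds, was at 3.06 and 3.22 FPKM, and its interval of -0.07 to 0.22 held 0. Flt4 was at 1.54 and 1.65 FPKM, with an interval of -0.13 to 0.34. The co-receptor Nrp1 was at 19.1 and 20.7 FPKM, a difference of 0.12, and Nrp2 was at 21.6 and 21.9 FPKM, a difference of 0.02. Tek, the angiopoietin receptor, was at 3.06 and 3.43 FPKM, with an interval of -0.02 to 0.35. Kdr, Flt1, Flt4 and Tek were thus measured in both libraries at a few FPKM, and Nrp1 and Nrp2 at higher levels, all with small differences.

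Fgfr1, a receptor of Fgf2, was at 41.3 FPKM without radiation and 44.2 FPKM with radiation, a difference of 0.10. Met, the receptor of Hgf, was at 6.35 and 7.26 FPKM, a difference of 0.19. Pdgfrb, the receptor of Pdgfb, was at 93.6 and 89.2 FPKM, a difference of -0.07. Pdgfra, the platelet-derived growth factor receptor of fibroblast progenitors, had the most negative difference among the receptors, at 95.6 and 73.9 FPKM, a difference of -0.37 (-0.40 to -0.34). Fgfrl1, a receptor without a kinase domain, had the most positive one, at 4.25 and 5.48 FPKM, a difference of 0.36. Sdc4, a heparan sulfate co-receptor, was the most abundant, at 104 and 111 FPKM.

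Of 19 other ligands of the same families, 11 reached 1 FPKM, with 7 higher and 4 lower and a median difference of 0.20. The 2 at or past a difference of 1 were both close to the filter, beside a share of 0.791% over the 11253 genes. Both passed the filter only through the radiation library. Angptl7 was at 0.206 FPKM without radiation and 1.08 FPKM with radiation, from 13 and 78 fragments. The difference was 1.95 (1.53 to 3.36), and the log2 ratio without the pseudocount was 2.39. Fgf1 was at 0.516 and 1.15 FPKM, from 68 and 174 fragments. Its difference was 1.02 (0.75 to 1.59), and its log2 ratio without the pseudocount was 1.16. Vegfd was the furthest below 0, at 36.4 and 30.2 FPKM, a difference of -0.27. Angptl2 was the most abundant, at 58.0 and 63.9 FPKM. Fgf18 was at 5.25 and 9.68 FPKM, a difference of 0.87. It was named after its value was seen.

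Genes that release, activate or store these ligands were measured as a list of 20, and 16 reached 1 FPKM. Of these, 11 were higher, 4 lower and 1 equal, none by at least 1, and the median difference was 0.14. Mmp9, a protease that frees matrix-bound VEGF, was the furthest below 0, at 62.6 and 39.6 FPKM, a difference of -0.66.

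Of 20 inhibitors of angiogenesis, 18 reached 1 FPKM, with 14 higher and 4 lower and a median difference of 0.24. Cxcl10, an interferon-induced chemokine that restrains endothelial growth, was the only one at or past a difference of 1, beside 0.791% of the 11253 genes. It was at 2.59 FPKM without radiation and 9.89 FPKM with radiation, a difference of 1.89 (1.64 to 2.23). Cxcl9, a chemokine of the same receptor, was the furthest below 0, at 1.16 and 0.759 FPKM, a difference of -0.55. Serpinf1, which encodes pigment epithelium-derived factor, was the most abundant, at 609 and 560 FPKM. Timp3, a matrix-bound inhibitor that blocks Vegfa binding to Kdr, was at 92.3 and 180 FPKM, a difference of 0.96. Thbs1, which encodes thrombospondin, was at 265 and 370 FPKM, a difference of 0.48. Timp3 and Thbs1 were named after their values were seen.

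Of 20 other secreted angiogenic factors, 17 reached 1 FPKM, with 7 higher, 9 lower and 1 equal and a median difference of -0.07. None was at or past a difference of 1. Cxcl5, a neutrophil chemokine, was the most abundant, at 1884 FPKM without radiation and 1287 FPKM with radiation. Ctgf, a matrix-associated growth regulator, was the furthest above 0, at 259 and 425 FPKM, a difference of 0.71. Rspo3, an enhancer of Wnt signalling in endothelium, was the furthest below 0, at 10.2 and 5.84 FPKM, a difference of -0.79.

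**Figure D3:**
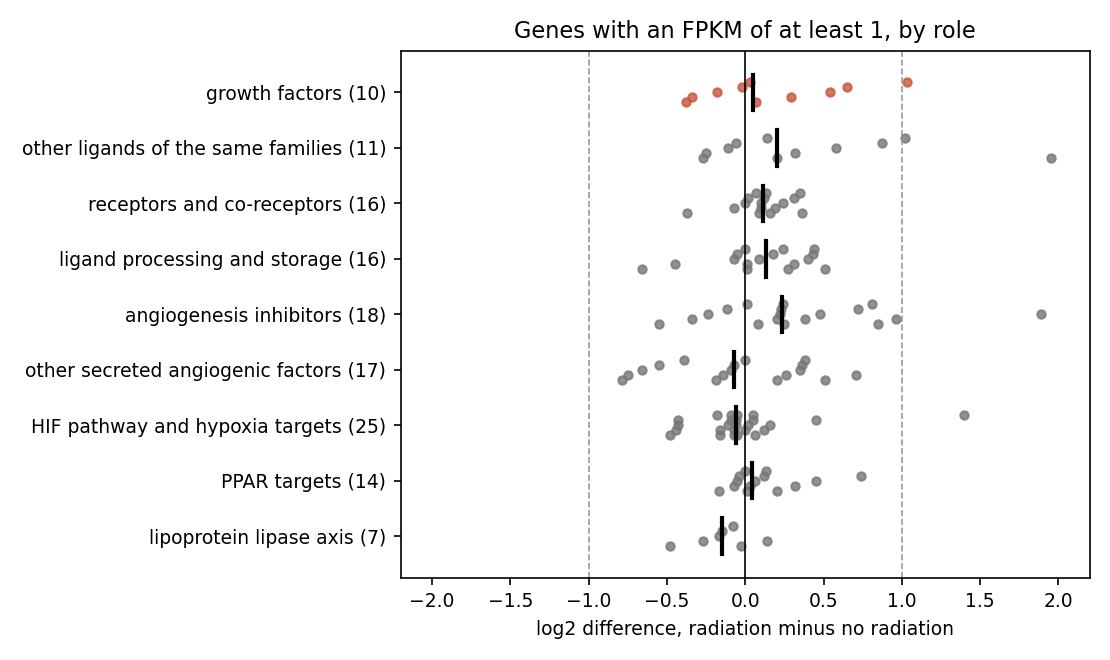
Log2 difference, radiation minus no radiation, of each gene that reached 1 FPKM in at least 1 library, by role, with a black bar at the median of each list and the number of genes in brackets. The medians ran from -0.15 (lipoprotein lipase axis, 7 genes) to 0.24 (angiogenesis inhibitors, 18 genes).

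Vegfa and Angptl4 are targets of hypoxia-inducible factors (HIF), so 25 genes of the HIF pathway and its targets were set beside them. All 25 reached 1 FPKM, with 8 higher, 16 lower and 1 equal and a median difference of -0.06. The counting interval lay above 0 for 4 and below 0 for 12, against 23.8% and 17.4% of the 11253 genes. Hif1a, which encodes the subunit regulated by oxygen as a protein, was the furthest below 0. It was at 154 FPKM without radiation and 111 FPKM with radiation, a difference of -0.48. Car9, a carbonic anhydrase, was the only one at or past a difference of 1, beside 0.791% of the 11253 genes. It was at 0.403 and 1.23 FPKM from 24 and 84 fragments, and passed the filter only through the radiation library. The difference was 1.40 (0.94 to 2.33), and the log2 ratio without the pseudocount was 1.61. Ldha, which encodes lactate dehydrogenase, was the most abundant, at 580 and 556 FPKM.

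Angptl4 is also a target of the nuclear receptors called PPARs. Of 18 PPAR genes and targets, 14 reached 1 FPKM, with 9 higher, 4 lower and 1 equal, none by at least 1, and a median difference of 0.05. Pdk4, a brake on glucose oxidation, was the furthest above 0, at 0.928 and 1.62 FPKM, a difference of 0.74. Ehhadh, a peroxisomal enzyme, was the furthest below 0, at 1.21 and 1.06 FPKM, a difference of -0.17. Cd36, a fatty acid carrier, was the most abundant, at 118 and 161 FPKM.

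The enzyme that Angptl4 inhibits, lipoprotein lipase (Lpl), was at 68.0 FPKM without radiation and 66.6 FPKM with radiation, a difference of -0.03. Lpl was the most abundant of the 12 genes of the lipase axis. Of those 12, 7 reached 1 FPKM, with 1 higher and 6 lower, none by at least 1, and a median difference of -0.15. Lmf1, a maturation factor of the lipase, was the one that was higher, at 1.29 and 1.43 FPKM, a difference of 0.14 (-0.03 to 0.33). Angptl8, a partner of Angptl4 in lipase control, was the furthest below 0, at 1.33 and 0.928 FPKM from 35 and 28 fragments, a difference of -0.48 (-1.29 to 0.24).

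The 8 lists together held 150 different genes, of which 123 reached 1 FPKM. Of these 123, 4 were higher by at least 1 (Angptl7, Fgf1, Cxcl10 and Car9), none was lower by at least 1, and the median difference was 0.05. Over all 11253 genes the shares were 0.791% higher and 0.373% lower by at least 1. The counting interval lay above 0 for 53 of the 123 and below 0 for 33, against 23.8% and 17.4% of the 11253 genes. Angptl7, Fgf1 and Car9 passed the filter only through the radiation library, where they were high, so their calls are tied to the filter.

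RefSeq promoter sequences (GRCm38.p6) were matched for 6 of the 10 members, Vegfa, Vegfb, Vegfc, Pgf, Fgf2 and Hgf, and not for Angpt1, Angpt2, Angptl4 and Pdgfb. Pgf and Fgf2 are shown because they had the highest differences of the 6, with Vegfa as the abundant ligand that was nearly level. Each line gives the 250 bases before the start of the gene's span in the deposited table, 5′ to 3′ on the strand of the gene. The motifs searched on both strands were ACGTG and GCGTG (cores of HIF sites), GGGCGG (the GC box) and TGANTCA (the AP-1 site). Capitals mark each match, as the motif or as its reverse complement. The Pgf window is chr12:85177314-85177563 (minus strand) with 1 GCGTG and 2 GGGCGG. The Fgf2 window is chr3:37348403-37348652 (plus strand) with 1 GCGTG and 1 GGGCGG. The Vegfa window is chr17:46032378-46032627 (minus strand) with 2 GGGCGG. The table holds another window for Vegfa, chr17:46025164-46025413, with 1 ACGTG, 1 GCGTG and 1 GGGCGG, and another for Pgf, chr12:85175983-85176232, with none of the 4 motifs. Of the matched members not shown, Vegfb had 2 GCGTG and 4 GGGCGG, and Vegfc had 2 GGGCGG. Hgf had 1 GCGTG and no GGGCGG, and another window for Hgf had none of the motifs. A GCGTG match was thus not particular to the members that were higher. In GENCODE the Fgf2 gene starts at 37348346 and the minus-strand Pgf gene at 85177790, so the windows shown for Fgf2 and Pgf lie within those annotated genes. Among all 21086 windows of this length in the table, 34.4% held GCGTG, 43.3% held GGGCGG, 18.1% held ACGTG and 6.36% held TGANTCA.
Pgf: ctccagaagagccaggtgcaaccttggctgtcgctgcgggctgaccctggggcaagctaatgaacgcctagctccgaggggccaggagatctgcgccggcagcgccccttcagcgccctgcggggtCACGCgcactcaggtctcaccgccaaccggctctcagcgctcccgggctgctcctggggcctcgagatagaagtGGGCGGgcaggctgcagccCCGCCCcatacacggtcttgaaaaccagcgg
Fgf2: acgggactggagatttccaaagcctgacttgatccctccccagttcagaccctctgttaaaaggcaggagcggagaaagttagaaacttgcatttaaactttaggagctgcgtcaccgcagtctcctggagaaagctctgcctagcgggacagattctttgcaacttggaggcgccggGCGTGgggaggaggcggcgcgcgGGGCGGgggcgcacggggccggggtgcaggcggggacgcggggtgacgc
Vegfa: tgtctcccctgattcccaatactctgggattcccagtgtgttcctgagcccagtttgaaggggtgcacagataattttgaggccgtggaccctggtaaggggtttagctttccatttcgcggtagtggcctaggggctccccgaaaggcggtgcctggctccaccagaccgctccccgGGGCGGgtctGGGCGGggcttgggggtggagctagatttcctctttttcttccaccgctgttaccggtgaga

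The windows shown have in common the GC box, which is widespread among promoters. The G and C content was 68.4% for Pgf, 62.4% for Fgf2 and 59.2% for Vegfa, beside a median of 55.6% over all windows. A match describes letters in the window only.

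Markers of the other cells that a fat digest can hold were read beside these genes. Of 14 endothelial markers, 13 reached 1 FPKM, with 11 higher and 2 lower, and none was at 0. They summed to 61.1 FPKM without radiation and 69.4 FPKM with radiation, and Cdh5, a junction protein, was the most abundant at 16.5 and 16.2 FPKM. Of the lymphatic endothelial markers, 5 of 6 were in the table and 1, Flt4, reached 1 FPKM. They summed to 2.10 and 2.32 FPKM. All 10 pericyte and smooth muscle markers were higher with radiation, with a median difference of 0.25 and sums of 932 and 1184 FPKM, and Acta2, smooth muscle actin, was the most abundant. The counting interval lay above 0 for 6 of the 13 endothelial and 8 of the 10 pericyte and smooth muscle markers. It lay below 0 for none of them. Beside these, 23.8% and 17.4% of the 11253 genes had an interval above and below 0.

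Of 10 mesothelial markers, 9 were higher, 6 of them by at least 1, and the median difference was 1.09. Of those 6, 5 passed the filter only through the radiation library, and the share over all genes was 0.791%. They summed to 35.9 FPKM without radiation and 52.2 FPKM with radiation, and Wt1, the most abundant, was at 20.4 and 18.7 FPKM. Of 13 macrophage markers, 10 were higher and 3 lower, with a median difference of 0.44 and sums of 603 and 650 FPKM, and Lyz2, lysozyme, was the most abundant. Of the 12 fibroblast and progenitor markers, 6 were higher and 6 lower. The counting interval lay above 0 for 9 mesothelial, 8 macrophage and 4 fibroblast and progenitor markers. It lay below 0 for 1, 1 and 5 of them. None of the mesothelial, macrophage, fibroblast or pericyte and smooth muscle markers was at 0 in either library. Of the lymphocyte markers, 8 of 9 were in the table and 1, Cd3g, reached 1 FPKM, with sums of 2.85 and 1.55 FPKM. The 5 platelet markers summed to 211 and 238 FPKM, nearly all from Pf4, and Gp9 was at 0 in both. None of the 6 epithelial markers reached 1 FPKM, with sums of 0.999 and 1.27 FPKM, Spint1 the most abundant and Elf3 at 0 in both. Several of these lists differed between the libraries, and their part in the result was not tested.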

How the data were processed

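The values were those that the authors deposited, log2 of FPKM plus a pseudocount of 0.1, with 2 decimals, and the gene length used for each. The submitters' notes name build mm10, while aligner, counter and annotation are not stated in the sources used here. Fragments were recovered from FPKM and length. The total of each library was the smallest at which low genes came close to whole fragments, 30600000 and 35000000. At these totals 1312 of 1312 and 1330 of 1330 low genes came out whole within 0.12, which is no separate check, as the totals were fitted to them. Intervals are exact Clopper-Pearson 95% intervals of the fragment ratio, without a pseudocount, and cover counting error only. With 1 library per condition they hold no variation between mice or cultures. PCR copies are not independent molecules, so the intervals can be too narrow even for counting error. For a 1 kb gene, 3 fragments are 0.0981 and 0.0857 FPKM. The filter kept the 11253 genes that reached 1 FPKM in either library, and the threshold was a difference of 1. No test was possible. Named by rule were all members, 10 of their receptors and, in the 8 lists other than cell markers, the most abundant gene, the most positive and most negative difference and each gene past the threshold. The rule was applied only in part to ligand processing and storage. Members and lists were chosen with earlier results of these data known. Alternatives changed the pseudocount, scaling, filter, threshold, interval level and use of the median. Transcript lengths are from GENCODE. Intervals used SciPy 1.17.1, tables pandas 2.3.3 and numpy 2.4.6, and plots matplotlib 3.10.9, under Python 3.11.15.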

Additional observations from a re-analysis of the deposited data

How the results depend on the processing

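No member changed direction, but this says little about stability, since a pseudocount cannot change a direction and the scalings tried shift all genes alike by at most 0.02. Of the 10 members, 1 was higher by at least 1. That count became 0 with a pseudocount of 1, 0 when the filter was raised to 5 FPKM, which leaves out Pgf, and 3 with a threshold of 0.5. Over all genes the same count went from 89 to 29, 23 and 485. Of the genes in the 8 lists, 4 were higher by at least 1. That count became 1 with a pseudocount of 1, 1 with the FPKM filter at 5 and 14 with a threshold of 0.5, and the count lower by at least the threshold went from 0 to 6 with a threshold of 0.5, beside 42 and 162 over all genes. The members with a counting interval above 0 numbered 3 in place of 5, and those below 0 numbered 1 in place of 2, with the FPKM filter at 5, which leaves fewer genes. Centring on the median of genes at or above 1 FPKM in both libraries gave 4 above 0, without Vegfa. The mean in place of the median was 0.17 for the members and 0.11 for the lists, and with the FPKM filter at 5 the median of the lists was 0.01. Both medians were 0.03 after centring. With 1 library per condition, no paired analysis was possible and no replicate could be left out. Genes near 1 FPKM, such as Angptl7 with 13 and 78 fragments, are limited by depth, as their wide intervals show.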

Other observations

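Among genes that act on the ligands after secretion, the urokinase system was measured well above the filter. Plau, which encodes urokinase, was at 33.3 FPKM without radiation and 43.9 FPKM with radiation, a difference of 0.40 (0.33 to 0.48). Plaur, its receptor, was at 25.0 and 34.0 FPKM, a difference of 0.44 (0.34 to 0.54). Urokinase and its receptor were thus both higher with radiation. Ccbe1, a cofactor in the maturation of Vegfc, was at 19.9 and 22.5 FPKM, a difference of 0.18 (0.12 to 0.24), and Adamts3, a protease that acts with it, was at 2.29 and 1.65 FPKM, a difference of -0.45 (-0.66 to -0.29). All 4 were picked with their values in view.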
